A study of Mus musculus with 24 samples.

Results

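This account follows 10 mouse genes that oxidise or reduce alcohols and aldehydes: the alcohol dehydrogenases Adh1, Adh4 and Adh5, the aldehyde dehydrogenases Aldh1a1, Aldh1a7, Aldh1b1 and Aldh2, and the aldo-keto reductases Akr1a1, Akr1b7 and Akr1c19. They were taken by exact gene name from the probe annotation of the arrays, with control spots left out, and were measured by 16 of the 56605 probes, among 26392 named genes. Liver RNA of C57BL/6J mice bought from Janvier was hybridised to single-colour 60-base oligonucleotide arrays, 24 in all. The labels describe 4 groups of 6 arrays: male mice on a pesticide diet, male mice on a control diet, female mice on a pesticide diet and female mice on a control diet, each for 52 weeks and each given as 68 weeks old, although the purchase age, the acclimatisation and the diet period of the protocol add up to less. The pesticide groups received a mixture in the food, and the labels do not name its components. The question was what the long exposure does to liver gene expression in each sex. The labels give no mouse number, so p-values measure only the spread between liver samples.

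Alcohol dehydrogenases oxidise alcohols to aldehydes, and aldehyde dehydrogenases carry the aldehydes on to acids. In liver this pair of steps clears ethanol, retinol and the aldehydes that lipid peroxidation releases. Aldo-keto reductases run in the reducing direction and turn aldehydes and ketones, steroids among them, into alcohols.

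The probes are shown because each gene's value is the signal of such a short stretch. Positions are on mm9, the build that the scanner files give, and letters run 5′ to 3′ along the probe. For Adh1 and Aldh1b1 bases 31 to 60 are shown and for the other probes bases 1 to 30. The junction probes of Adh1 and Aldh2, whose 60 bases span more genome than their length, are shown whole. Capitals mark AATAAA, the usual polyadenylation signal, which 3 of the 16 probes hold.
Adh1 A_52_P629895, chr3:137952821-137952880, plus strand: tttacctttcgagaaAATAAAtgaagcatt
Adh1 A_55_P2502426, chr3:137943475-137945457, plus strand: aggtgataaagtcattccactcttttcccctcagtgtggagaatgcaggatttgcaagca
Adh4 A_51_P189442, chr3:138093716-138093775, plus strand: atgccaggagcaacttggaatgttatctga
Adh5 A_55_P2605938, chr3:138118088-138118147, plus strand: actgtccatcctgcactctttcctgtgatt
Aldh1a1 A_51_P334942, chr19:20717764-20717823, plus strand: gactagttgtgacttaagctctgtccctca
Aldh1a7 A_51_P383399, chr19:20767553-20767612, minus strand: ttccttgaactatgtaccatgcatgataac
Aldh1b1 A_51_P510418, chr4:45816960-45817019, plus strand: agtgttacaagaagtgtcaaccAATAAAgt
Aldh2 A_52_P116134, chr5:122022137-122022690, minus strand: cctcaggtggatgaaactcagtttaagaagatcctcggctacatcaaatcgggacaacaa
Aldh2 A_66_P130688, chr5:122017909-122017968, minus strand: gaaaacccaacaagatatactgagaaaaac
Aldh2 A_55_P2739341, chr5:122017680-122017739, minus strand: gagcAATAAAaatcagcagatcaaagccac
Aldh2 A_52_P13109, chr5:122016157-122016216, minus strand: tgccatcacaggcacaagaaacggacggtg
Akr1a1 A_55_P2499634, chr4:116309175-116309234, minus strand: tgtatccctttaatgacccatactgagacc
Akr1b7 A_51_P331288, chr6:34372905-34372964, plus strand: gagatccgtgcatgatagattccttcgtct
Akr1c19 A_51_P111335, chr13:4247501-4247560, plus strand: cttcagccagagctgtgtccaccagtccgg
Probes of different genes of the group shared no run longer than 9 bases. The probes of Aldh1a1 and Aldh1a7, close relatives that lie side by side, shared a longest run of 8 bases and matched at 21 of their 60 bases at the best ungapped alignment. Probes were compared with probes alone, which cannot show whether a probe also fits the RNA of another gene. Cross-hybridisation was not tested.

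Levels are log2 intensities of the median spot signal after quantile normalisation. By the scanner's mark, 29935 to 39032 probes exceeded background clearly on each array; the median signal was 63 to 109, and 0 spots were saturated. Testing asked for that mark, "well above background", on 4 or more of the 6 arrays in 1 group or more. It left 32078 probes, among them 14 of the 16 described here. Every one of those 14 was well above background on all 24 arrays. The 3 slides held 2 arrays of each group.

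The sex labels did not match the sex-chromosome transcripts. Xist, the transcript that coats the inactive X chromosome in female cells, averaged 8.24 in labelled male pesticide livers, against 5.08 in labelled male control livers, and 8.21 in labelled female pesticide livers, against 5.12 in labelled female control livers. It was well above background on all 6 arrays of each labelled pesticide group and on 0 of the labelled control arrays. Eif2s3y, a Y-linked translation factor subunit, ran the other way, averaging 5.08 in labelled male pesticide livers, against 10.94 in labelled male control livers, and 5.13 in labelled female pesticide livers, against 10.99 in labelled female control livers. On every array, then, these transcripts followed the diet label. For each difference between labelled diets given here, diet and sex cannot be told apart.

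In labelled pesticide livers of both labelled sexes, Adh4, Adh5, Aldh1a1 and Aldh1a7 fell and Aldh1b1 and Akr1b7 rose, each with a limma adjusted p under 0.05. Adh1 passed in labelled males alone and Akr1a1 in labelled females alone, while Aldh2, by its brightest probe, and Akr1c19 passed in neither. In labelled males 7 of the 10 genes passed, 3 higher and 4 lower, where 25.1% of the 16496 named genes tested passed (14.1% higher and 11% lower). In labelled females 7 of 10 passed, 2 higher and 5 lower, where 20.5% of all tested genes passed (10.4% higher and 10.1% lower). The 6 genes called the same way in both labelled sexes compare with 14.5% of all tested genes. The median log2 fold change of the 10 genes was -0.08 in labelled males and -0.19 in labelled females, beside -0.02 and -0.01 over all tested genes. The genes were chosen with earlier results of these data known, so these shares describe the group.

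**Figure D1:**
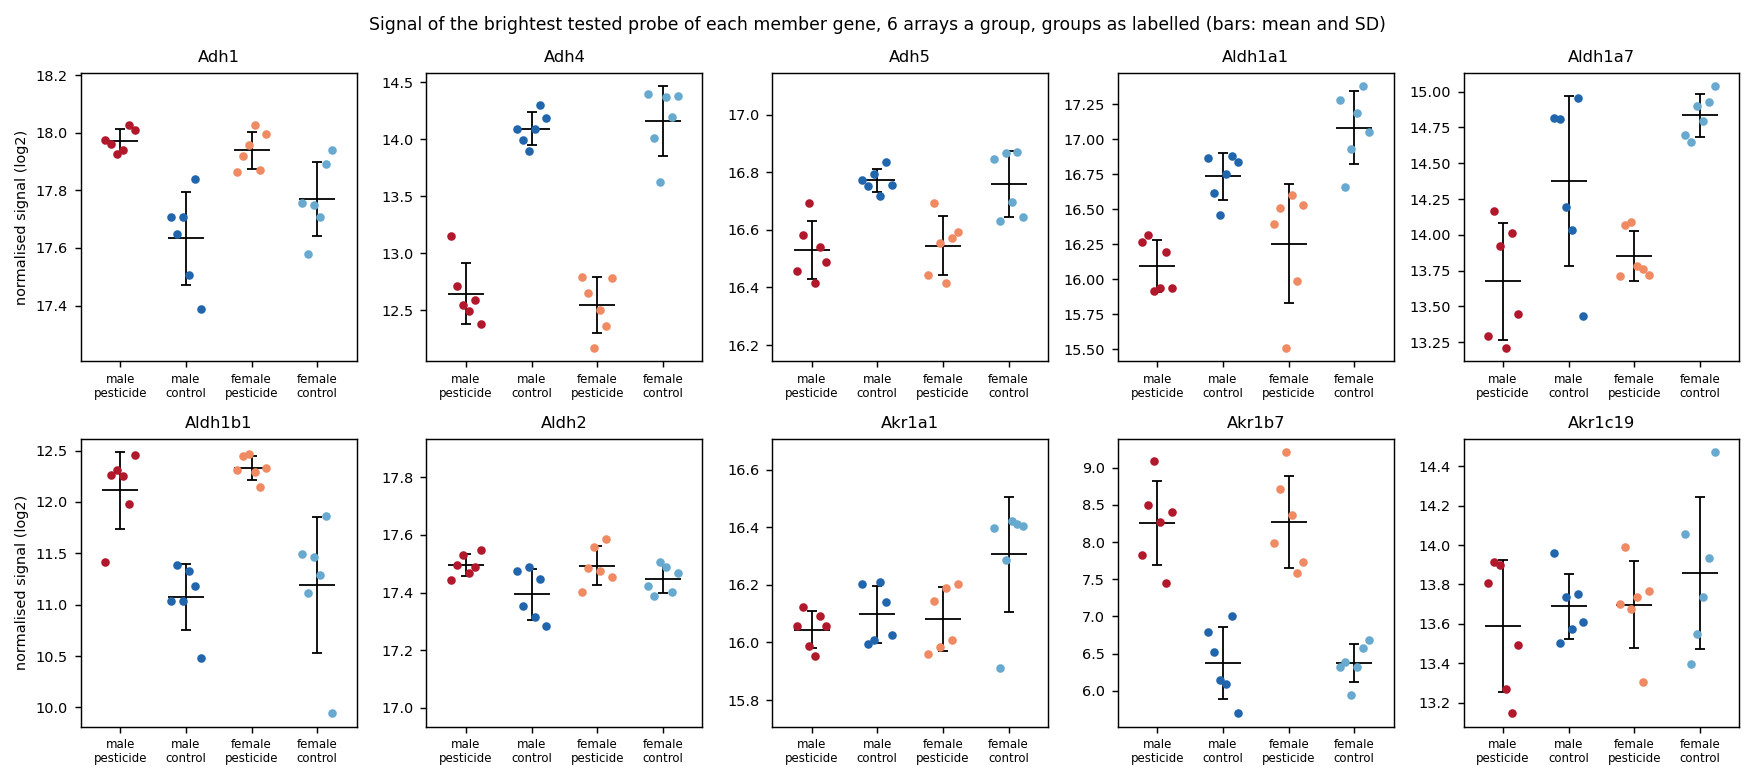
Normalised log2 signal of the brightest tested probe of each of the 10 genes on every array, in the 4 labelled groups; black marks give the mean and SD over 6 arrays, and each panel has its own scale. The 12 labelled pesticide arrays lie below all 12 labelled control arrays for Adh4 and above all of them for Akr1b7.

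Adh4, the class II alcohol dehydrogenase, which is abundant in liver and acts on retinol and long-chain alcohols, was lower in labelled pesticide livers. Its level was 12.38 at the lowest, 12.57 at the median and 13.15 at the highest in labelled male pesticide livers, against 13.90, 14.09 and 14.30 in labelled male control livers. In labelled female pesticide livers it was 12.17, 12.58 and 12.79, against 13.62, 14.28 and 14.39 in labelled female control livers. Every labelled pesticide array lay below every labelled control array, in both labelled sexes. The log2 fold change was -1.45 in labelled males (SE 0.14, 2.73-fold lower, limma adjusted p = 3.6e-08) and -1.62 in labelled females (SE 0.14, 3.07-fold lower, limma adjusted p = 6.3e-09). Within slides 1, 2 and 3 taken alone it was -1.11, -1.47 and -1.76 in labelled males and -1.48, -1.66 and -1.71 in labelled females, past the threshold each time. Of all tested genes, 98.5% changed by less in labelled males and 98.9% in labelled females. In bulk liver RNA, fewer cells of a type and less RNA per cell cannot be told apart.

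Adh5, which oxidises the glutathione adduct of formaldehyde and is made in nearly all cells, was lower by a small amount. The means were 16.53 ± 0.10 in labelled male pesticide livers, against 16.77 ± 0.04 in labelled male control livers (± SD over n = 6 arrays each), with no overlap of the arrays. In labelled females they were 16.54 ± 0.10 with labelled pesticide and 16.76 ± 0.11 with labelled control diet (± SD over n = 6 arrays each), and the arrays overlapped. The difference on the log2 scale was -0.24 in labelled males (SE 0.06, limma adjusted p = 0.0078) and -0.21 in labelled females (SE 0.06, limma adjusted p = 0.02). The call in labelled females was lost without labelled female pesticide array 1 (-0.19, limma adjusted p = 0.05) and without array 4 of the same group (-0.19, limma adjusted p = 0.053). A second Adh5 probe, A_55_P2715026 at chr3:138108696-138108755, lies 9332 bases upstream of the first and was not tested, being well above background on 2 arrays alone.

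Adh1, the class I enzyme that carries out most ethanol oxidation in liver, was slightly higher in labelled male pesticide livers. Its level was 17.93 at the lowest, 17.97 at the median and 18.03 at the highest in labelled male pesticide livers, against 17.39, 17.68 and 17.84 in labelled male control livers. In labelled females it was 17.86, 17.94 and 18.03 with labelled pesticide, against 17.58, 17.75 and 17.94 with labelled control diet. The arrays did not overlap in labelled males and overlapped in labelled females. This made a log2 fold change of 0.34 in labelled males (SE 0.07, limma adjusted p = 0.0013) and 0.17 in labelled females (SE 0.07, limma adjusted p = 0.1). With each array scaled to its 75th percentile in place of quantile normalisation, the value in labelled males was 0.13 from the median signal (limma adjusted p = 0.14) and 0.09 from the processed signal (limma adjusted p = 0.34), and the call was lost.

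The second Adh1 probe, A_55_P2502426, which spans a splice junction upstream, gave 0.34 in labelled males (SE 0.10, limma adjusted p = 0.019) and 0.27 in labelled females (SE 0.10, limma adjusted p = 0.07). Its call in labelled males was lost under the same scalings (0.23 and 0.22) and without labelled male control array 6 (0.27, limma adjusted p = 0.056). Without labelled male control array 6 or labelled female control array 6, this probe passed in labelled females, at 0.27 (limma adjusted p = 0.05) and 0.32 (limma adjusted p = 0.039). Another probe under the Adh1 name, A_52_P835985, lies on the minus strand, opposite to the others, and was close to background. Its means were 5.70 and 5.47 in labelled male pesticide and control livers and 5.53 and 5.47 in labelled female pesticide and control livers, and it was not tested.

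The 3 alcohol dehydrogenases sit in a cluster on chromosome 3, so the genes beside them show whether neighbours moved alike. In the RefSeq table of GRCm38, used here for gene order alone, the 7 Adh genes of this chromosome follow each other as Adh7, Adh1, Adh6a, Adh6b, Adh6-ps1, Adh4 and Adh5. Of the 6 that were tested, Adh1 alone had positive differences between labelled diets in both labelled sexes, and the other 5 had negative ones. From processed signals under 75th-percentile scaling, the Adh1 value in labelled females turned to -0.02 (limma adjusted p = 0.89), and the other 5 kept their sign. Adh6-ps1, annotated as a transcribed pseudogene, had log2 fold changes of -1.96 in labelled males (SE 0.21, limma adjusted p = 3e-07) and -1.59 in labelled females (SE 0.21, limma adjusted p = 9.2e-06). No labelled male pesticide array had Adh6a well above background, with means of 5.15 there against 6.13 in labelled male control livers. Adh7, the stomach-type enzyme, passed in labelled males (-0.37, SE 0.12, limma adjusted p = 0.032) and gave -0.21 in labelled females (SE 0.12, limma adjusted p = 0.26). Cross-hybridisation among the Adh6 copies was not tested. Over the list of 5 other alcohol dehydrogenases tested, which adds the mitochondrial iron enzyme Adhfe1 and sorbitol dehydrogenase, 4 passed lower and 0 higher in labelled males, and 3 lower and 0 higher in labelled females. Adh6a, counted as lower in both labelled sexes, met the filter through the labelled control groups alone. It was well above background on 5 labelled male and 4 labelled female control arrays, against 0 and 1 with labelled pesticide. The filter thus favoured a lower value for Adh6a, here and among the cluster neighbours.

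Aldh1a1, the main cytosolic retinal-oxidising enzyme of liver, was lower in labelled pesticide livers. Its level was 15.92 at the lowest, 16.07 at the median and 16.32 at the highest in labelled male pesticide livers, against 16.46, 16.79 and 16.88 in labelled male control livers. In labelled females it was 15.51, 16.45 and 16.60 with labelled pesticide, against 16.66, 17.12 and 17.38 with labelled control diet. The arrays did not overlap within either labelled sex, and labelled female pesticide array 3 lay lowest of all. Labelled pesticide over labelled control gave a log2 fold change of -0.64 in labelled males (SE 0.15, 1.56-fold lower, limma adjusted p = 0.0041) and -0.82 in labelled females (SE 0.15, 1.77-fold lower, limma adjusted p = 0.00054).

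Aldh1a7, a close mouse relative of Aldh1a1 that is transcribed from the opposite strand beside it, was lower too. In labelled male pesticide livers its level was 13.21, 13.69 and 14.17 at the lowest, median and highest, against 13.44, 14.50 and 14.95 in labelled male control livers. In labelled females it was 13.71, 13.77 and 14.09 with labelled pesticide, against 14.65, 14.85 and 15.04 with labelled control diet. The labelled male arrays overlapped, since labelled male control arrays 4 and 6 lay within the range of the pesticide arrays, and the labelled female arrays did not. Its log2 fold change was -0.70 in labelled males (SE 0.20, limma adjusted p = 0.016) and -0.98 in labelled females (SE 0.20, limma adjusted p = 0.0016). Fitted on the 12 labelled male arrays alone, the value in labelled males no longer passed (limma adjusted p = 0.066). The neighbours differed from array to array in unlike ways: over the 24 arrays, their deviations from the group means had a Pearson r of 0.03, which describes these arrays and was not tested.

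Aldh1b1, a mitochondrial aldehyde dehydrogenase best known from the gut and from progenitor cells, was higher. Its level was 11.41 at the lowest, 12.26 at the median and 12.46 at the highest in labelled male pesticide livers, against 10.49, 11.11 and 11.38 in labelled male control livers. In labelled females it was 12.15, 12.32 and 12.47 with labelled pesticide, against 9.94, 11.38 and 11.86 with labelled control diet. The arrays did not overlap within either labelled sex, and labelled female control array 6 was the lowest. Its log2 fold change was 1.04 in labelled males (SE 0.22, 2.05-fold higher, limma adjusted p = 0.0018) and 1.14 in labelled females (SE 0.22, 2.20-fold higher, limma adjusted p = 0.001).

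Aldh2, the mitochondrial enzyme that clears acetaldehyde, was measured by 4 probes with unlike values after quantile normalisation. From 5′ to 3′ of the gene, the junction probe A_52_P116134 gave -0.04 in labelled males (SE 0.07, limma adjusted p = 0.72) and -0.02 in labelled females (SE 0.07, limma adjusted p = 0.9). In the alternatives other than leaving out a single array, it ran from -0.16 to 0.03 in labelled males. In labelled females it ran from -0.15 to 0.10. The brightest probe, A_66_P130688, gave 0.10 in labelled males (SE 0.05, limma adjusted p = 0.17) and 0.05 in labelled females (SE 0.05, limma adjusted p = 0.57). Under both 75th-percentile scalings the sign of this value in labelled males turned, to -0.18 (limma adjusted p = 0.03) and -0.21 (limma adjusted p = 0.013). Its means were 17.50 ± 0.04 in labelled male pesticide livers, against 17.39 ± 0.09 in labelled male control livers, and 17.49 ± 0.07 in labelled female pesticide livers, against 17.45 ± 0.05 in labelled female control livers (± SD over n = 6 arrays each).

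The 2 probes farther 3′ were lower in labelled pesticide livers. A_55_P2739341, which holds the AATAAA shown above from its base 5 and lies 169 bases past the brightest probe, gave -0.21 in labelled males (SE 0.06, limma adjusted p = 0.011) and -0.22 in labelled females (SE 0.06, limma adjusted p = 0.0099). A_52_P13109, another 1463 bases on, gave -0.21 in labelled males (SE 0.10, limma adjusted p = 0.13) and -0.32 in labelled females (SE 0.10, limma adjusted p = 0.021). That call in labelled females was lost without labelled female pesticide array 2 (-0.27, limma adjusted p = 0.057) or array 3 (-0.29, limma adjusted p = 0.051). Levels of different probes cannot be set against each other, and the difference between probes was not tested. Over the 24 arrays the group deviations of A_66_P130688 and A_55_P2739341 had a Pearson r of 0.78, and those of A_66_P130688 and A_52_P13109 a Pearson r of 0.04.

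**Figure D2:**
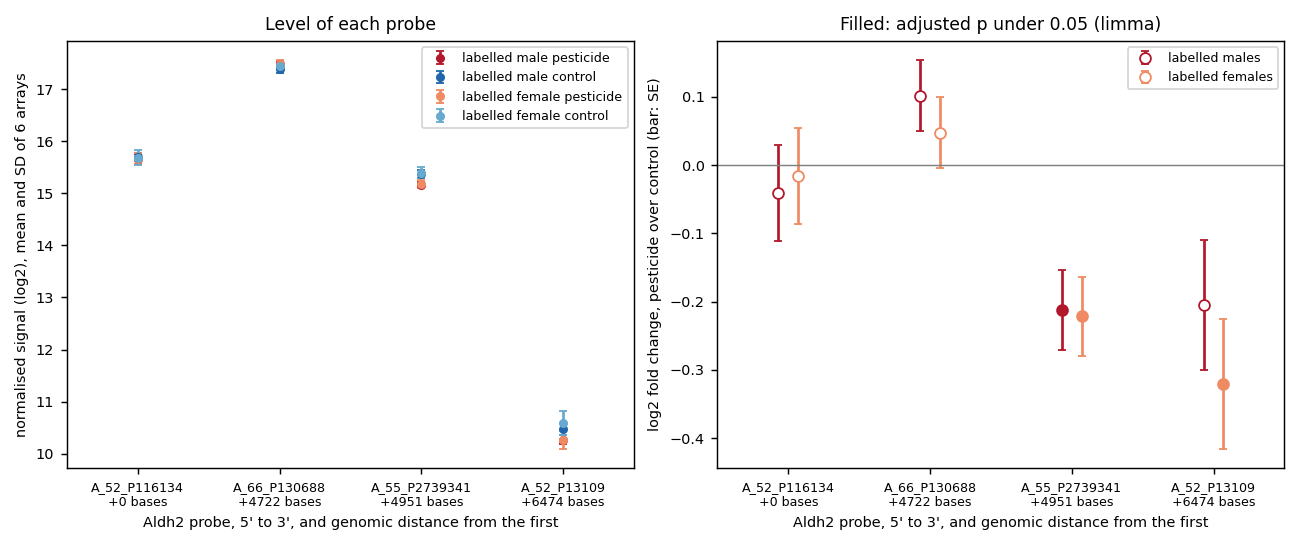
The 4 Aldh2 probes from 5′ to 3′, with the genomic distance from the first in bases; the left panel gives the mean log2 signal and SD of 6 arrays per labelled group, and the right panel the log2 fold change of labelled pesticide over labelled control with its SE. After quantile normalisation, values for the 2 probes nearest the 5′ end lie between -0.04 and 0.10, and those for the 2 probes farther 3′ lie between -0.21 and -0.32.

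Akr1b7, an aldose reductase-like enzyme that reduces lipid-derived aldehydes and is known from adrenal gland, vas deferens and bile-acid-treated gut and liver, was higher in labelled pesticide livers. Its level was 7.45 at the lowest, 8.34 at the median and 9.09 at the highest in labelled male pesticide livers, against 5.69, 6.33 and 7.004 in labelled male control livers. In labelled females it was 7.59, 8.18 and 9.22 with labelled pesticide, against 5.95, 6.36 and 6.69 with labelled control diet. All 12 labelled pesticide arrays lay above all 12 labelled control arrays. The log2 fold change was 1.88 in labelled males (SE 0.27, 3.69-fold higher, limma adjusted p = 2e-05) and 1.90 in labelled females (SE 0.27, 3.72-fold higher, limma adjusted p = 2.3e-05). On slides 1, 2 and 3 alone it was 1.51, 2.57 and 1.57 in labelled males and 2.00, 2.66 and 1.03 in labelled females. On slide 3 the limma adjusted p was 0.16 in labelled males and 0.32 in labelled females. Over all alternatives other than leaving out a single array, the value was 1.51 to 2.60 in labelled males and 1.03 to 2.66 in labelled females. The 2.60 came from an alternative other than a single slide. The labelled control levels of Akr1b7 were low for these arrays, whose lowest log2 level was 4.43, and no background was subtracted. The size of its change thus depends on the processing. Its levels had an SD of 0.57 over the 12 labelled pesticide and 0.37 over the 12 labelled control arrays.

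The Akr1b genes next to it also had positive differences. In the RefSeq order the cluster on chromosome 6 runs Akr1b3, Akr1b8, Akr1b10 and Akr1b7. Akr1b10 gave 0.98 in labelled males (SE 0.19, limma adjusted p = 0.00066) and 0.81 in labelled females (SE 0.19, limma adjusted p = 0.0045). Akr1b8 gave 0.49 in labelled males (SE 0.15, limma adjusted p = 0.024) and 0.59 in labelled females (SE 0.15, limma adjusted p = 0.009). Akr1b3, the aldose reductase of the sorbitol pathway, named after its values were seen, gave 0.51 in labelled males (SE 0.18, limma adjusted p = 0.048) and 0.41 in labelled females (SE 0.18, limma adjusted p = 0.12). The call for Akr1b3 was lost with either scaling to the 75th percentile (0.46 from the median signal and 0.45 from the processed signal, limma adjusted p = 0.058 and 0.082). Cross-hybridisation between these relatives was not tested, and the probes of Akr1b3, Akr1b8 and Akr1b10 were not compared in sequence with that of Akr1b7.

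Akr1c19, a member of the hydroxysteroid dehydrogenase branch, did not pass. Its means were 13.59 ± 0.33 in labelled male pesticide livers, against 13.69 ± 0.16 in labelled male control livers, and 13.70 ± 0.22 in labelled female pesticide livers, against 13.86 ± 0.39 in labelled female control livers (± SD over n = 6 arrays each). The log2 fold change was -0.10 in labelled males (95% interval -0.43 to 0.23, limma adjusted p = 0.7) and -0.16 in labelled females (95% interval -0.49 to 0.17, limma adjusted p = 0.52). Of the 8 Akr1c genes of its chromosome 13 cluster, 7 were tested, 0 passed in labelled males and Akr1c6, named after its values were seen, alone passed in labelled females (-0.27, SE 0.09, limma adjusted p = 0.043).

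Akr1a1, the widely made aldehyde reductase that also serves vitamin C synthesis in mice, was slightly lower in labelled female pesticide livers. Its means were 16.05 ± 0.06 in labelled male pesticide livers, against 16.10 ± 0.10 in labelled male control livers, and 16.08 ± 0.11 in labelled female pesticide livers, against 16.31 ± 0.20 in labelled female control livers (± SD over n = 6 arrays each). The log2 fold change was -0.05 in labelled males (SE 0.08, limma adjusted p = 0.68) and -0.22 in labelled females (SE 0.08, limma adjusted p = 0.048). The call in labelled females was lost in 25 of 36 alternatives, among them most that leave out a single array.

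**Figure D3:**
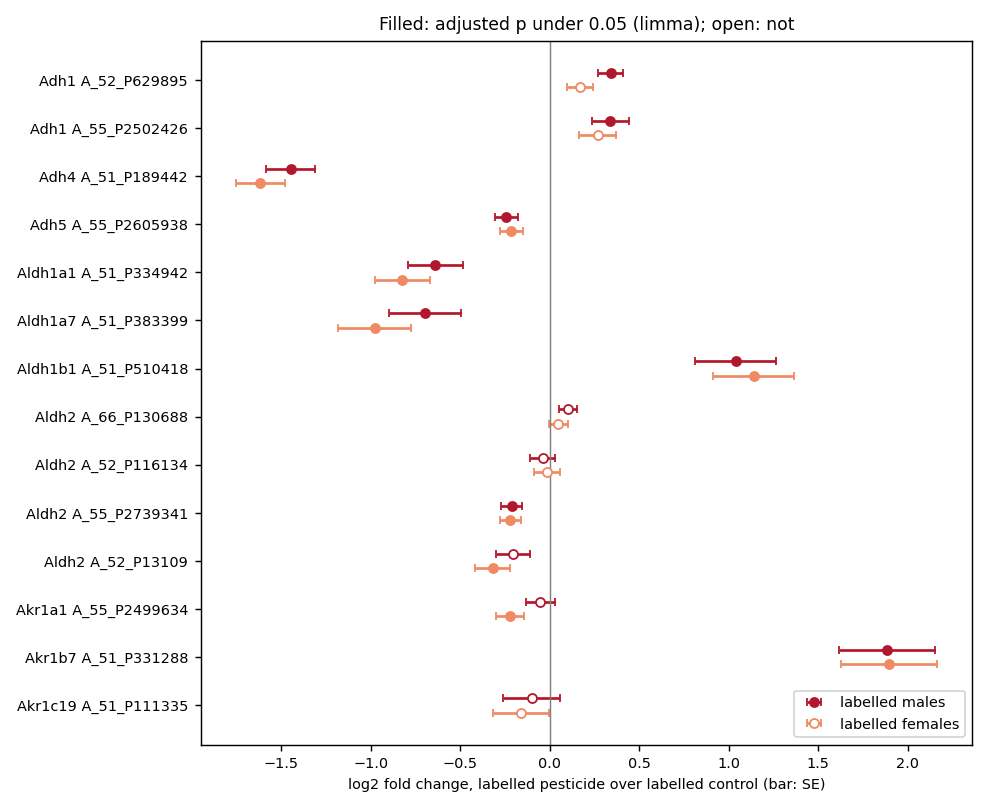
Log2 fold change of labelled pesticide over labelled control livers with its SE for each of the 14 tested probes, in labelled males and labelled females; filled points have a limma adjusted p under 0.05. Akr1b7 lies farthest right, at 1.88 and 1.90, and Adh4 farthest left, at -1.45 and -1.62.

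No test of a difference between the labelled sexes passed for these genes. Within each labelled diet all 12 livers carried the same sex-chromosome transcripts, so livers of labelled males and labelled females were alike in that respect. Whether the diet or the sex labels were exchanged was not tested, and what these comparisons set against each other cannot be told from the labels alone. For the diet difference in labelled males minus that in labelled females, limma called 0 of the 10 genes and 0% of all tested genes, with 0 members and 693 genes at an unadjusted p under 0.05. The intervals stayed wide: for Akr1b7 the 95% interval of that difference was -0.80 to 0.77 and for Adh4 -0.23 to 0.57. Between labelled male and labelled female livers on the labelled control diet, limma called 0 of 10 and 0% of all tested genes, with 1082 genes at an unadjusted p under 0.05. Of the group, 3 genes were among those, each lower in labelled males: Aldh1a1 by -0.35 (SE 0.15, unadjusted p = 0.033), Aldh1a7 by -0.46 (SE 0.20, unadjusted p = 0.034) and Akr1a1 by -0.21 (SE 0.08, unadjusted p = 0.014). Their limma adjusted p was 0.83, 0.83 and 0.69. On the labelled pesticide diet limma called 0 of 10 and 0% of all tested genes, with 0 members and 640 genes at an unadjusted p under 0.05.

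Arrays did not overlap between labelled diets for 6 of the 10 genes in labelled males, where 12% of all tested genes had no overlap. In labelled females this held for 5 genes, where 8.82% of all tested genes had no overlap. Over all 12 labelled pesticide against all 12 labelled control arrays it held for Adh4 and Akr1b7, beside 3.63% of all tested genes.

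Members that shared a direction did not always share the order of the arrays. Over the 24 arrays, deviations from the group means had a Pearson r of 0.68 for Adh4 with Aldh1a1 and 0.68 for Aldh1a1 with Akr1a1. For Adh1 with Aldh1a7, whose differences between labelled diets had opposite signs, r was 0.62. These were the highest values among all pairs of members and were picked by their size. For Adh4 with Adh5, which both fell, r was -0.14, and for Adh4 with Aldh1a7, which also both fell, it was -0.09. These values describe 24 arrays that share slides and scaling. Among 14448 other named genes compared, those with levels most like Adh4 over the 24 arrays were Arl6ip1 (Pearson r 0.97), Gstp2 (Pearson r 0.97) and Dpy19l3 (Pearson r 0.97). For Akr1b7 they were Abcc4 (Pearson r 0.94), Adamtsl1 (Pearson r 0.93) and Cd38 (Pearson r 0.93). For Aldh1b1 they were Adamtsl1 (Pearson r 0.92), Hamp2 (Pearson r 0.91) and Vnn3 (Pearson r 0.90). For Aldh1a1 they were Cebpe, Acaa1a and Col5a3 (Pearson r 0.92, 0.92 and 0.91) and for Aldh1a7 Taldo1, Tbc1d7 and Psmb4 (Pearson r 0.93, 0.92 and 0.91). These levels include the differences between the groups.

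Other aldehyde dehydrogenases are given by count. Of 16 other aldehyde dehydrogenases, 2 passed higher and 1 lower in labelled males, and 2 higher and 1 lower in labelled females, with a median log2 fold change of 0.06 and 0.11. Beside this and the other lists, 25.1% of all tested genes passed in labelled males and 20.5% in labelled females. Aldh7a1, which oxidises a lysine-breakdown aldehyde and betaine aldehyde, fell by 0.60 on the log2 scale in labelled males (SE 0.09, limma adjusted p = 3.6e-05) and by 0.59 in labelled females (SE 0.09, limma adjusted p = 5.6e-05). Aldh3b2 was well above background on no labelled control array, with means of 6.09 and 5.13 in labelled male pesticide and control livers and of 5.90 and 5.15 in labelled female pesticide and control livers. It is counted as higher in both labelled sexes but met the filter through labelled male pesticide livers alone. There it was well above background on 5 arrays, and on 3 in labelled female pesticide livers, so the filter favoured a higher value for it. Aldh8a1, first described as a retinal dehydrogenase, gave 0.23 in labelled males (SE 0.10, limma adjusted p = 0.092) and 0.41 in labelled females (SE 0.10, limma adjusted p = 0.0045). The difference between the 10 genes and these lists was not tested.

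Of 13 other aldo-keto reductases, 4 passed higher and 1 lower in labelled males, and 3 higher and 2 lower in labelled females, with a median log2 fold change of 0.04 in each. Akr1d1, the 5β-reductase of bile acid synthesis, gave 0.54 in labelled males (SE 0.14, limma adjusted p = 0.007) and 0.62 in labelled females (SE 0.14, limma adjusted p = 0.0029). Akr7a5, the mouse aflatoxin aldehyde reductase, gave -0.53 in labelled males (SE 0.06, limma adjusted p = 1.5e-06) and -0.40 in labelled females (SE 0.06, limma adjusted p = 9.8e-05). Of 21 retinol dehydrogenases and carbonyl reductases, 4 passed higher and 1 lower in labelled males and 3 higher and 1 lower in labelled females, with Rdh5 at 0.51 and 0.55 (SE 0.11 each, limma adjusted p = 0.0021 and 0.0014). Of 10 retinoid-handling genes, 4 passed higher in labelled males and 1 in labelled females. That 1 was Lrat, which esterifies retinol for storage, at 0.79 and 0.54 in labelled males and females (SE 0.17 each, limma adjusted p = 0.0015 and 0.024). Lrat is also counted among the stellate cell markers below, with the same probe and values.

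Of 9 genes of ethanol, formaldehyde and acetate metabolism, 1 passed higher and 2 lower in labelled males, and 0 higher and 4 lower in labelled females. With scaling to the 75th percentile, 4 passed lower in labelled males from the median signal and 5 from the processed signal. Aox3, a liver aldehyde oxidase that turns aldehydes into acids, gave -1.46 in labelled males (SE 0.22, limma adjusted p = 3.3e-05) and -1.47 in labelled females (SE 0.22, limma adjusted p = 4e-05). Its relative Aox1 gave -0.45 in labelled males (SE 0.18, limma adjusted p = 0.083) and -0.86 in labelled females (SE 0.18, limma adjusted p = 0.002). Glutathione reductase, Gsr, gave -0.28 in labelled males (SE 0.08, limma adjusted p = 0.016) and -0.40 in labelled females (SE 0.08, limma adjusted p = 0.0017).

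**Figure D4:**
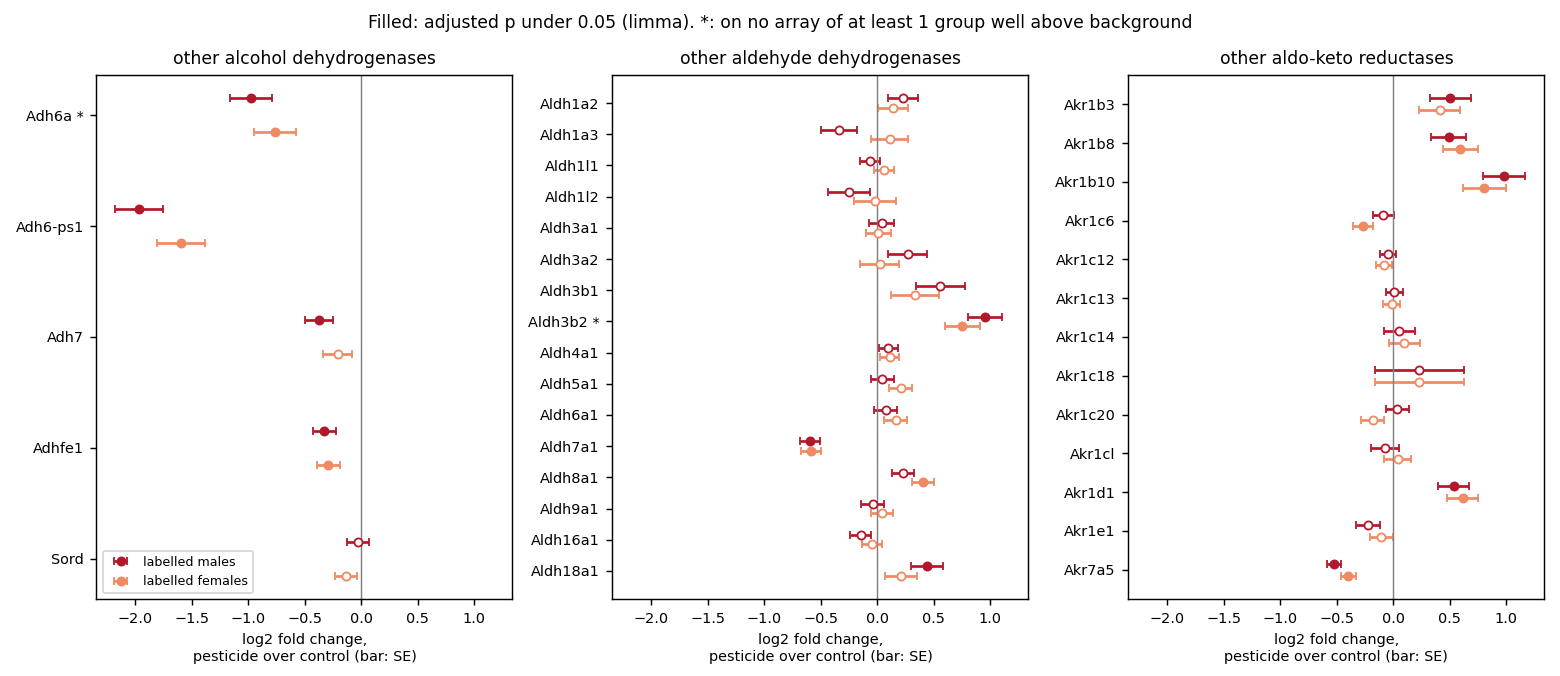
Log2 fold change of labelled pesticide over labelled control livers with its SE for the tested genes of the 3 families outside the group of 10, in labelled males and labelled females; filled points have a limma adjusted p under 0.05, and a star marks a gene that 1 group or more measured well above background nowhere. Adh6-ps1 lies farthest left, at -1.96 and -1.59, and most aldehyde dehydrogenases lie near 0.

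Markers of other liver cells moved with the labelled diet too. Hepatocyte markers, among them Apoa1 and Cps1, passed in 0 of 8 genes in either labelled sex, with 1 gene in each at an unadjusted p under 0.05. With scaling to the 75th percentile, 3 of the 8 passed lower in labelled males from the median signal and 4 from the processed signal, among them Alb, also named after its values were seen, with its sign turned to -0.20 and -0.22 (limma adjusted p = 0.023 and 0.02). Hepatocyte markers had summed intensities of 1456000 to 1517000 in labelled male pesticide, 1507000 to 1536000 in labelled male control, 1438000 to 1533000 in labelled female pesticide and 1470000 to 1517000 in labelled female control livers. Of 10 Kupffer cell markers 9 passed higher in each labelled sex, with summed intensities of 37120 to 60530 in labelled male pesticide, 14280 to 56030 in labelled male control, 26370 to 76290 in labelled female pesticide and 11820 to 57780 in labelled female control livers. Of 8 endothelial markers 7 passed higher in labelled males and 5 in labelled females, and the summed intensity was 23100 to 34610, 16630 to 23410, 24630 to 34030 and 15540 to 21630 in the same order of groups. Of 10 stellate cell markers 8 passed higher in labelled males and 5 in labelled females, at 92570 to 106600, 52330 to 76160, 89120 to 104800 and 62560 to 83130. All markers of these 4 lists were above background on at least 1 array. Their part in the differences of the 10 genes was not tested.

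Zonal markers bear on genes that are unevenly spread along the liver lobule. Of 7 pericentral markers 0 passed in labelled males (1 at an unadjusted p under 0.05, and 2 lower, Cyp2e1 and Oat, with either scaling to the 75th percentile), and 1, Glul, passed lower in labelled females (-0.46, SE 0.14, limma adjusted p = 0.025). Of 7 periportal markers 1 passed lower in labelled males, and 4 higher and 1 lower in labelled females; with either scaling to the 75th percentile 3 passed lower in labelled males, and 2 higher and 1 lower in labelled females. The lower one of the quantile-normalised values was Cyp2f2, at -0.998 in labelled males (SE 0.16, limma adjusted p = 0.00011) and -0.97 in labelled females (SE 0.16, limma adjusted p = 0.00018). Of 6 bile duct markers 0 passed in either labelled sex, with 4 in labelled males and 1 in labelled females at an unadjusted p under 0.05. Of 9 B and T cell markers 4 passed higher in labelled males and 0 in labelled females, where 1 had an unadjusted p under 0.05. Of 3 adipocyte markers tested, Cfd alone passed, lower in both labelled sexes. Of 4 adrenal cortex markers tested, where Akr1b7 is also made, 1 passed higher and 2 lower in labelled males and 1 higher and 1 lower in labelled females, and Cyp11b1 was above background on no array. Their part was not tested either.

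The promoters of 9 of the 10 genes were in the RefSeq table of GRCm38, with 11 starts in all, each from 250 bases before to 50 after the start. The palindrome TTCNNNGAA, to which STAT5, a factor of growth hormone signalling, binds, was searched on both strands. It was found in 8.3% of the 32851 promoters of the table and in 1 of the 11, that of Akr1c19. A match describes these letters and is no binding site, and the lack of one says nothing about the factor.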

How the data were processed

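Spot signals in the deposited scanner files are fluorescence intensity values, per the file headers, extracted with Agilent Feature Extraction 10.10.1.1 per the submitters' processing notes. The deposited table holds, per the labels, median signals that the authors filtered, turned into log2 values and quantile normalised; it was used as an alternative, after each of the 24 arrays was found to correlate best with its own column. Here the median signal of 62976 spots per array was used without background subtraction, less 3671 control spots and spots marked as outliers. Spots of a probe were averaged and arrays quantile normalised. Array number limits the precision.

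In R 4.3.3, limma 3.58.1 (lmFit, contrasts.fit and eBayes) estimated a mean for each of the 4 groups from the 24 arrays, with two-sided tests, with Benjamini-Hochberg adjustment over 32078 probes and a threshold of 0.05, and was tested on simulated data. For the comparison in labelled males, with 50 probes changed at each size, it recovered 16% at a log2 change of 0.25. At changes of 0.5, 1 and 2 it recovered 64%, 92% and 100%. On the real arrays 7131 probes passed in that comparison, far more than were changed in the simulated data, and the adjustment depends on that number. These percentages need not hold for the real comparison, where a small difference may still fail to pass. The brightest tested probe stood for a gene. All 10 members were named, and up to 4 genes of each other list, those with the smallest p; Akr1b3, Akr1c6, Alb and sorbitol dehydrogenase fall outside this rule and were named after their values were seen. For likeness, the 3 genes with the highest Pearson r were taken. The members and lists were chosen with earlier results of these data known.

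Same-numbered arrays did not all correlate above 0.1 between any 2 of the groups (-0.12 to 0.22 between labelled male pesticide and control, -0.07 to 0.14 between labelled female pesticide and control, 0.07 to 0.31 between the labelled pesticide groups), so the numbers were not used as pairs. Alternatives were normexp with an offset of 50, scaling to the 75th percentile, other filters, blocks by slide or replicate number, each slide alone, only the groups compared, the deposited table and leaving out each array. Scalings of the related and marker lists were added after seeing the data.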

Additional observations from a re-analysis of the deposited data

Results flagged for a closer look

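For 3 of the 64 combinations of probe and group, a single array stood apart from the 5 others by Dixon's test at the 95% level, which chance does for about 1 in 20 groups. The Adh1 probe A_55_P2502426 read 16.19 on labelled female pesticide array 3, against 15.79 to 15.90 on the others. The Aldh2 probe A_52_P13109 read 10.11 on labelled male pesticide array 4, against 10.26 to 10.34 on the others. Akr1a1 read 15.91 on labelled female control array 2, against 16.29 to 16.42 on the others.

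The Adh5 probe A_55_P2715026, which was not tested, was well above background on labelled female pesticide arrays 1 and 3, at 6.79 and 7.13, while its highest level on a labelled control array was 5.67. On the 4 other arrays of that group it was not well above background. The bright Adh5 probe did not stand apart on these 2 arrays.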

How the results depend on the processing

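The number of the 10 genes called stayed at 7 in labelled males and 7 in labelled females with normexp, either 75th-percentile scaling, a slide block, probes above background on all arrays and the deposited table. In these settings 6346 to 7745 probes were called in labelled males and 5378 to 6286 in labelled females, of 27060 to 32078 tested. The main fit called 7131 and 5878. With no filter on dim probes 7 and 6 of the 10 genes passed, beside 5913 and 4749 of 56605 probes. With only the groups compared 6 and 5 passed, beside 6995 and 4698 of 32078 probes. Leaving out 1 array gave 7 in labelled males throughout and 5 to 7 in labelled females. The probes called then numbered 5921 to 7483 in labelled males and 4777 to 6526 in labelled females. Under either scaling the split in labelled males was 2 higher and 5 lower, in place of 3 and 4: Adh1 lost its call and Aldh2 turned to -0.18 (median signal) and -0.21 (processed signal). On slides 1, 2 and 3 alone, with 2 arrays a group, 2, 3 and 1 of the 10 genes passed in labelled males and 2, 3 and 1 in labelled females, and the probes called numbered 1052, 583 and 459 in labelled males and 1041, 319 and 346 in labelled females, against 7131 and 5878. These fits have fewer arrays. Adh4 passed in both labelled sexes in all 36 alternatives, and Akr1b7 in 35. The other comparisons called 0 of the 10 genes in all 36 alternatives. Replicate numbers were not used as pairs, although same-numbered arrays were on average more alike than others in every pair of groups. The mean Pearson r of group deviations was 0.20 for the same number and -0.04 for other numbers between the labelled pesticide groups. Between labelled female pesticide and control livers it was 0.04 and -0.01. With a replicate block 7 and 7 of the 10 genes passed, with 8099 and 6751 probes called, and 0 of 6 arrays matched best with their own number between the labelled male groups, 3 of 6 between the labelled female groups and 4 of 6 between the labelled pesticide groups. Signal over background limits the 2 untested probes. In labelled males, 75th-percentile scaling of the median signal and of the processed signal also gave 2 higher and 2 lower with each for retinol dehydrogenases and carbonyl reductases, 3 higher with 3 and 2 lower for aldo-keto reductases, 2 higher with 2 and 3 lower for aldehyde dehydrogenases, and 4 higher with 1 and 2 lower for retinoid handling.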

Other observations

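Arrays of the 2 labelled sexes that carry the same number lie on the same slide, and their values for the 10 genes were set side by side within each labelled diet. For Akr1b7 in labelled pesticide livers the 6 numbers gave a Pearson r of 0.84, with the 2 levels of a number differing by 0.09 to 0.67, most at number 6 and by at most 0.22 at the other numbers. In labelled control livers r for Akr1b7 was 0.01. Aldh1a7 gave 0.70 in labelled pesticide and -0.64 in labelled control livers. These are 6 points each, picked from 20 such values after they were seen, and no test was run.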
